A study of Mus musculus with 24 samples.

Results

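The cytosolic ribosomal protein genes encode the proteins of the small and large subunits of the ribosome that translates nuclear-encoded mRNA, and 84 of the 33000 genes in the deposited count table belong to them. They were chosen by name: protein-coding genes whose symbol is Rpl or Rps followed by a number with at most a short suffix, together with Rpsa, Rplp0, Rplp1 and Rplp2. Of these, 51 carry Rpl symbols, of the large subunit, and 33 carry Rps symbols, of the small subunit. The rule used symbols alone and no measured value.

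The data were 24 libraries made with 3'Pool-seq, a protocol that sequences fragments from the 3' end of polyadenylated transcripts, from frontal cortex RNA of 6 mice aged 3 months, 3 WT and 3 GFAP-IL6, with C57BL/6 given as the strain of all. The GFAP-IL6 mice were homozygous for a transgene in which the Gfap promoter, active in astrocytes, drives the cytokine Il6. Each mouse gave 4 libraries, since tagmentation was run on 2 ng and on 1 ng of cDNA in both sets, which the labels call A and B. In this protocol samples are pooled after reverse transcription, so the 6 mice of a set and amount can share 1 tagmentation reaction, and the cDNA amount then cannot be told apart from the 2 reactions run at each amount.

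Each ribosome carries 1 copy of nearly every ribosomal protein, and cells make these proteins in matched amounts. In vertebrates the mRNAs begin with a C and a run of pyrimidines, the 5' terminal oligopyrimidine (TOP) tract, through which mTORC1 signalling sets their translation as a group. The mRNAs are short and abundant in all tissues, neurons and glia included, and single members are often used as reference genes.

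Since TOP tracts are what these genes are known to share at the start of their mRNAs, the sequence around the annotated start is shown for 8 genes to which the results return. Only genes with a pyrimidine run there, as defined below, could be shown, so a run in each was fixed in advance. RefSeq promoters on GRCm38.p6 were matched for 63 of the 84 genes, 75 promoters in all. Each stretch has 28 bases and is written 5' to 3' on the strand of the gene, with the longest run of a C followed by at least 5 pyrimidines in capitals. Against the annotated start, with negative positions before it, the runs begin at -7 for Rpl35, -5 for Rps9 and -4 for Rpl15 and Rplp2. Those of Rps27, Rps6 and Rps26 begin at -2, -1 and 5. The run of Rpl31, of 13 bases, begins at -18 and ends before the annotated start. None begins at the annotated first base, and whether these runs are TOP tracts was not tested.
Rps6: aagtcgggCCTCTTTTTCgtgacgcctc
Rpl15: ggagaaagCCTTCTTCCTTTCCTCTggc
Rpl35: cggccccgCCCTTTCCTCTTTCTCTCga
Rplp2: gtcagcgtCTTCCTTTCgccgccggacg
Rps27: cgctttcgCTCCTTTCCggcggtgacga
Rps26: cgccggatCCTCTTTCgagtcttggctc
Rpl31: tcgccacaCCTCTTCCTCCTCgcctccc
Rps9: cgccttgtCTCTCTTTgtctcgggcctg
These lie at chr4:86857349-86857376 (Rps6, minus strand), chr14:18270971-18270998 (Rpl15, minus strand), chr2:39005119-39005146 (Rpl35, minus strand), chr7:141447639-141447666 (Rplp2, plus strand), chr3:90213631-90213658 (Rps27, minus strand), chr10:128626483-128626510 (Rps26, minus strand), chr1:39367825-39367852 (Rpl31, plus strand) and chr7:3704028-3704055 (Rps9, plus strand). A run of this kind, on the sense strand and starting within 20 bases of the annotated start, was in 43 of the 75 ribosomal protein promoters (57.3%) and in 29.4% of all 32851 promoters of the same length. The letters CCGGAAG, on either strand in the 300 bases around the start, were in 27 of the 75 (36.0%) and in 8.86% of all promoters. A match describes these letters only, and the motifs were chosen with the sequences in view.

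The genes were spread over 19 chromosomes, with 14 on chromosome 7 and 4 on chromosome X. In the GENCODE vM21 annotation the representative transcripts of the 83 members with an annotated 3' UTR had a median length of 775 nt, against 2400 nt over all protein-coding genes, and a median 3' UTR of 69 nt, against 646 nt. The 3' UTR was shorter than 100 nt in 50 of these 83 genes (60.2%) and in 16.0% of all protein-coding genes. Rps4l, which the count table lists as protein-coding, is a transcribed processed pseudogene in vM21. Ribosomal protein genes have many processed copies in the genome: 51 of the 84 had at least 1 other annotated gene with 97% identity or more over at least 100 of their last 300 nt, and Rps2 had 33. The authors counted uniquely aligned reads, so a member with such copies can be counted too low, and its level against other genes is uncertain. The 19 ribosomal protein pseudogenes named as such in the table held 2641 counts in all, against 4121782 counts on the 84 members.

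Of all counted reads, 3.554% ± 0.331 (SD over 24 libraries) fell on the 84 genes, from 2.818% to 4.006%. Counted reads per library ranged from 1524165 to 12256374, and in the shallowest, the 2 ng library of set A of WT mouse 3, the share was 3.449% with a 95% Wilson interval of 3.42% to 3.478%, which covers counting error only. Levels are given below as CPM, counts scaled to a common library total with TMM, over the 4 summed libraries of a mouse. The median member stood at 356 CPM, 76 of the 84 reached 100 CPM, and the 10 highest held 29.3% of the group's CPM. The highest were Rps14, a small-subunit protein, at 1459 CPM, Rplp1, an acidic protein of the stalk that binds elongation factors, at 1372 CPM, and Rpl13a at 1018 CPM. Per kb of the deposited gene length Rplp1 came first at 2772 CPM per kb, Rps14 came in place 6 at 1552 and Rpl13a came in place 26 at 539. The paper did not normalize counts for gene length, since only 3' ends are sequenced. This order per kb is therefore not a measure of abundance.

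**Figure D1:**
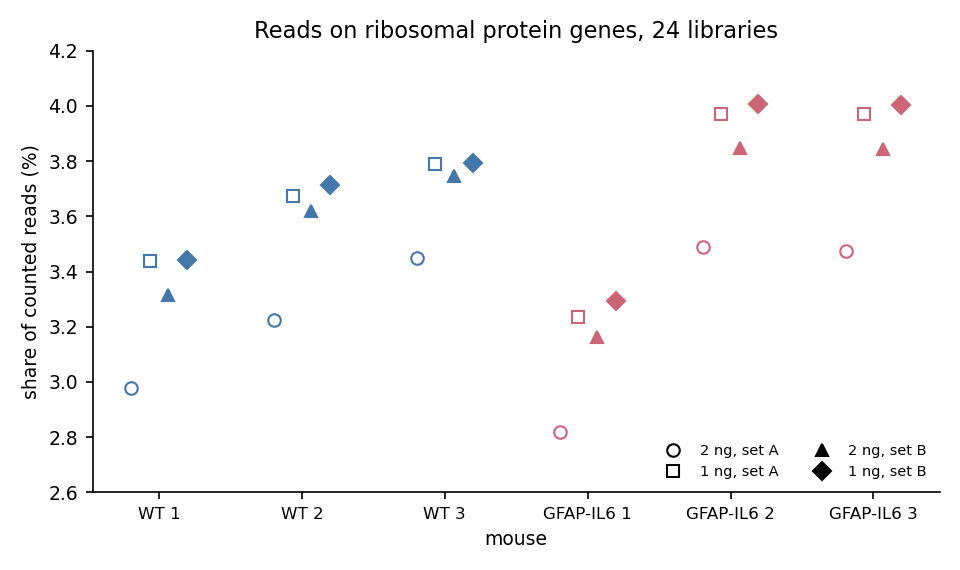
Share of counted reads on the 84 ribosomal protein genes, in percent, for each of the 24 libraries by mouse (blue WT, red GFAP-IL6), with a symbol for each cDNA amount and set and a vertical axis that starts at 2.6%. GFAP-IL6 mouse 1 and WT mouse 1 were lowest in every set, and the 2 ng library of set A was the lowest of each mouse, between 2.818% and 3.489%.

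Proteins that occur as pairs of paralogues differed widely in level. The muscle paralogue Rpl3l had 61 counts over all 24 libraries, and the paralogue Rpl39l had 34. Rpl10l, a retrogene known from testis, had 0 counts, and with 3 counts as the limit for a count of 0 this says only that it was under the detection of these libraries. Their partners Rpl3, Rpl39 and Rpl10 stood at 645, 111 and 242 CPM. In the other pairs both genes were measured: Rpl22l1 at 264 CPM was above Rpl22 at 156 CPM, while Rps27 at 930.4 CPM was above Rps27l at 85.5 CPM, and Rpl7 at 211 CPM was above Rpl7l1 at 57.1 CPM. Rpl10a at 68.2 CPM, Rpl7l1 and Rps4l at 31.0 CPM were the lowest of the 81 members that passed the filter on low counts. The 3 that did not pass were Rpl3l, Rpl39l and Rpl10l, and no test was made on them.

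The comparison of genotypes asked whether ribosomal protein mRNAs differed in a cortex that astrocytes expose to Il6. Il6, which the transgene drives, stood at 3.16, 1.58 and 4.23 CPM in the GFAP-IL6 mice, against 0.26, 0.17 and 0 CPM in the WT mice. Gfap, the astrocyte filament gene, stood at 80.9, 102 and 146 CPM against 20.3, 23.5 and 16.0 CPM. What raised Gfap was not tested. No ribosomal protein gene passed the test: 0 of 81 were called by edgeR's quasi-likelihood test at a Benjamini-Hochberg adjusted p under 0.05, where 1.8% of all 14621 genes tested were called. None of the 81 had an unadjusted p under 0.05, against 8.75% of all genes, and DESeq2 also called 0, where it called 2.07% of all genes. The median log2 fold change of GFAP-IL6 over WT was 0.014, with 44 values above 0 and 37 below, against -0.0069 over all genes tested. All 81 approximate 95% intervals lay within 0.5 on the log2 scale on either side of 0, with a lowest lower bound of -0.39 and a highest upper bound of 0.41. They use a normal quantile, and with 3 mice per genotype they can be too narrow.

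The largest difference in size between genotypes was that of Rps9, a small-subunit protein, which stood at 483, 549 and 505 CPM in WT mice and at 481, 637 and 624 CPM in GFAP-IL6 mice. GFAP-IL6 mouse 1 was the lowest of the 6, so the groups overlapped, and the log2 fold change was 0.18 (SE 0.106, edgeR adjusted p = 0.715). Rps4x, the X-linked form of a small-subunit protein, showed the same arrangement, with 166, 175 and 172 CPM in WT mice against 156, 214 and 200.4 CPM (log2 fold change 0.16, SE 0.104). Rpl22l1 went the other way, with 265, 272 and 299 CPM against 223, 276 and 253 CPM (log2 fold change -0.15, SE 0.0929, edgeR adjusted p = 0.733). Rpl35 had its highest value in GFAP-IL6 mouse 1, at 424 CPM, where 78 of the 81 members were below the median of the 6 mice. Rpl7l1 had a log2 fold change of 0.13 (edgeR adjusted p = 0.775). This gene, between 51.6 and 56.2 CPM in WT mice and between 58.0 and 62.0 CPM in GFAP-IL6 mice, was the single member of the 81 whose groups did not overlap, an arrangement seen in 14.4% of all genes. By mRNA length the median log2 fold change was -0.036 for the 24 members of up to 600 nt, 0.023 for the 33 of more than 600 and up to 1000 nt and 0.034 for the 23 above 1000 nt, and Spearman's rho between difference and length was 0.465 over 80 members and 0.0217 over 13653 protein-coding genes, as a description across genes that share their mice.

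The members chosen for their roles were not called either. Rps6, the substrate of S6 kinase downstream of mTORC1, stood at 238 CPM ± 23.5 in WT mice and 257 CPM ± 19.6 in GFAP-IL6 mice (SD, n = 3 each). The stalk proteins Rplp0, Rplp1 and Rplp2 had log2 fold changes of 0.096, -0.061 and -0.042. Rpsa, also known as a laminin-binding protein, and Rps27a, made as a fusion with ubiquitin, had 0.040 and -0.0071. The edgeR adjusted p-values of these 6 genes were 0.831 or higher.

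The levels of the members moved together between mice. The share of reads on them was 3.318%, 3.584% and 3.716% in WT mice 1, 2 and 3, and 3.151%, 3.853% and 3.85% in GFAP-IL6 mice 1, 2 and 3. The group means, 3.539% ± 0.203 and 3.618% ± 0.404 (SD, n = 3), differed by less than the SD within either genotype. Against the median of the 6 mice, only 3 of the 81 genes were higher in GFAP-IL6 mouse 1 and 5 in WT mouse 1, but 76 in GFAP-IL6 mouse 2 and 71 in GFAP-IL6 mouse 3. Over all genes tested these shares lay between 48.6% and 51.3%. Rpsa ranged from 237 CPM in WT mouse 1 and 240.1 CPM in GFAP-IL6 mouse 1 to 350.3 CPM in WT mouse 3. The median within-genotype SD was 0.147 on the log2 scale for the 76 members of at least 100 CPM and 0.0998 for all 1889 genes at that level.

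**Figure D2:**
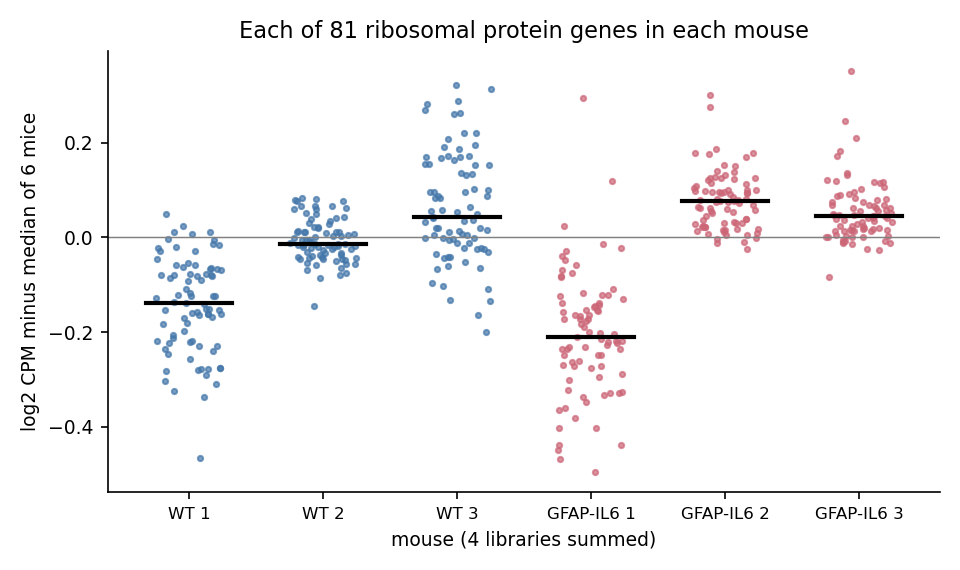
Level of each of the 81 tested ribosomal protein genes in each mouse as log2 CPM minus the gene's median over the 6 mice, 1 point per gene, with the median as a bar (blue WT, red GFAP-IL6). The bars lay at -0.209 for GFAP-IL6 mouse 1 and -0.138 for WT mouse 1 and between -0.0128 and 0.0764 for the other 4 mice.

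The order of the mice was the same in the 4 combinations of amount and set, except that GFAP-IL6 mice 2 and 3 tied in 1. These 4 combinations repeat the measurement on 1 RNA per mouse and do not add mice. The 5 listed ribosomal proteins that the symbol rule leaves out, among them Fau, Rpl36al, Rps27rt and Gnb2l1 (now called Rack1), summed to 1001 CPM in GFAP-IL6 mouse 1, 1060 in WT mouse 1, 1140 in WT mouse 2, 1153 in WT mouse 3, 1262 in GFAP-IL6 mouse 3 and 1301 in GFAP-IL6 mouse 2, which is the order of the members' own sums. The 17 translation factors and other genes with TOP mRNAs were also lowest in GFAP-IL6 mouse 1, at 3080 CPM, and highest in GFAP-IL6 mouse 2, at 3710 CPM, but WT mouse 3 was next to lowest there, at 3191 CPM. The 77 mitochondrial ribosomal protein genes, whose products translate mitochondrial mRNA, did not follow the order: WT mouse 1 had their highest sum, 7542 CPM, and WT mouse 3 the lowest, 6449 CPM. Total counts, from 7852743 in WT mouse 3 to 37582644 in GFAP-IL6 mouse 3, did not follow it either. The summed level of the 3 choroid plexus markers, none of them at 0, was 3939 CPM in WT mouse 3 and 743.5 CPM in GFAP-IL6 mouse 1 against 78.8 to 431 CPM in the other 4 mice, and the part of this tissue in the levels was not tested.

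The sign of the group's median difference changed on leaving out single mice. It turned to -0.050 without GFAP-IL6 mouse 2, to -0.032 without GFAP-IL6 mouse 3 and to -0.047 without WT mouse 1, and it was 0.087 without GFAP-IL6 mouse 1, with 0 genes called in each case. In bulk tissue, fewer cells of a type and less RNA per cell cannot be told apart. Of the microglia markers 9 of 10 rose in GFAP-IL6 mice, with a summed level of 987.6 to 1361 CPM against 533 to 566.5 CPM in WT mice, and their part in the ribosomal protein levels was not tested. Flt1 rose among the 4 endothelial markers, and 0 were called of 6 astrocyte, 6 neuronal, 5 oligodendrocyte, 2 precursor, 3 choroid plexus and 5 blood markers. The neuronal markers summed to between 5657 and 6617 CPM, and markers of T and B cells were under the filter. No gene was called between genotypes among the mitochondrial ribosomal proteins (0 of 77, median -0.038), the 17 TOP genes (median 0.036), the 23 ribosome biogenesis genes (median 0.0052) or the 13 genes of mTORC1 and S6 kinase control (median -0.012). At an unadjusted p under 0.05, edgeR had 2, 0, 1 and 1 genes of these lists.

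Between the cDNA amounts, which cannot be told apart from the reactions, many members were called. Between 2 ng and 1 ng, 38 of 81 were called (46.9%), against 12.3% of the 13750 genes tested. Of these 10 were higher and 28 lower with 2 ng, where 5.57% and 6.76% of all genes were. At 100 CPM or more the shares were 38 of 76 members and 26.4% of 1889 genes. The median log2 fold change of the members was -0.13, against 0.0041 for all genes, and 59 of the 81 were below 0. In all 6 mice 45 members were lower and 17 higher with 2 ng. No share over all genes is given for this count, so it is not read as particular to the members. The amounts are paired by mouse, and with the mouse as a block 66 were called, 18 higher and 48 lower, where 31.2% of all genes were called, 14.8% higher and 16.4% lower. All 38 kept their call and sign with the block, whose p-values measure the spread between libraries of 1 RNA per mouse.

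**Figure D3:**
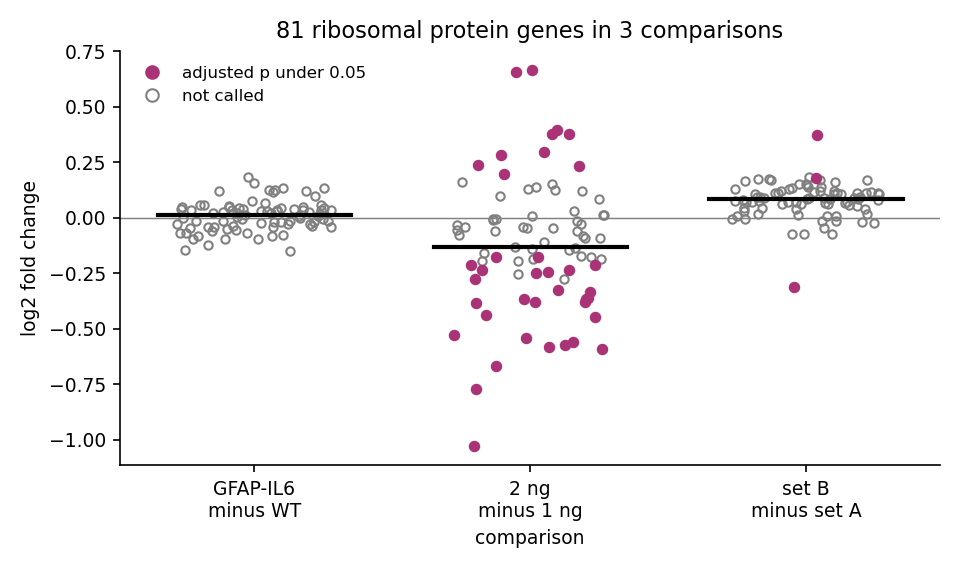
Log2 fold change of the 81 tested ribosomal protein genes in the 3 comparisons, with genes called at an adjusted p under 0.05 filled and medians as bars. Values lay between -0.15 and 0.18 for the genotype, where 0 were called, between -1.03 and 0.67 for the cDNA amount, where 38 were called, and between -0.31 and 0.37 for the set, where 3 were called.

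Rpl23a, which sits beside the exit of the peptide tunnel, moved furthest. Its level was 109 to 146 CPM with 2 ng (median 132) and 232 to 301 CPM with 1 ng (median 269), and the amounts did not overlap. The log2 fold change was -1.03 (SE 0.0750, edgeR adjusted p = 7.77e-09), and it was the single called member past an absolute log2 fold change of 1, as were 0.64% of all genes. Rps26, of the small subunit near the mRNA exit channel, stood at 249 to 311 CPM (median 285) with 2 ng and at 391.5 to 495 CPM (median 445) with 1 ng, a log2 fold change of -0.67 (SE 0.0688, edgeR adjusted p = 5.41e-07). Rpl31 fell from a median of 463.5 CPM (408 to 523.5) with 1 ng to 303 CPM (295 to 332) with 2 ng, a log2 fold change of -0.57 (SE 0.0609). The 2 ng and 1 ng values did not overlap for any of these 3 genes, as for 20 of the 81 members and 6.32% of all genes.

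The genes that rose with 2 ng did so by up to 0.67 on the log2 scale. Rpl15, of the large subunit, stood at 229.7 to 284 CPM (median 265.5) with 2 ng and at 156.5 to 179 CPM (median 167) with 1 ng, a log2 fold change of 0.66 (SE 0.0598, edgeR adjusted p = 1.02e-07). Rpl10, which joins the large subunit at the end of its maturation, stood at 256 to 349.7 CPM against 153 to 222 CPM (log2 fold change 0.67, SE 0.0873). Rps6 stood at 259 to 317 CPM against 189 to 238.5 CPM (log2 fold change 0.40, SE 0.0649), and Rpl7 rose by 0.38 on the same scale (SE 0.0694). Neither subunit went 1 way: of 48 large-subunit genes 7 were higher and 14 lower, and of 32 small-subunit genes 3 were higher and 14 lower, leaving Rps4l aside. Of all genes 5.57% were higher and 6.76% lower.

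Of the other role genes, Rplp2 fell (log2 fold change -0.24, SE 0.0675) while Rplp0 and Rplp1 were not called, at 0.0089 and -0.14. Within pairs of paralogues, Rps27 fell by 0.44 on the log2 scale and Rps27l was not called, at -0.061. Likewise Rpl7 rose and Rpl7l1 was not called, at -0.11. Neither Rpl22 nor Rpl22l1 was called, at -0.14 and 0.098. Whether the members of a pair differed from each other was not tested. The highest in level, Rps14, fell by 0.24 (SE 0.0558), Rpl13a was not called at -0.20, and neither were Rpsa at 0.12 and Rps27a at 0.15. With the mouse as a block Rplp1, Rpl22, Rpl22l1, Rpl13a, Rpsa and Rps27a were called in the directions given, while Rplp0, Rps27l and Rpl7l1 were not.

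The amounts were also compared within each set. Within set A 43 members were called, 8 higher and 35 lower, where 17.4% of all genes were called, 8.63% higher and 8.8% lower. Within set B 28 were called, 11 higher and 17 lower, where 6.14% of all genes were called, 2.5% higher and 3.64% lower. With the mouse as a block these were 71 and 58 (29.8% and 19.8% of all genes). In both sets 24 genes were called, all with the same sign, and 63 of the 81 had the same sign. Like counts over all genes are not given, with or without the block, so these counts are not read as particular to the members. With the block 52 genes were called in both sets, 47 with the same sign and 5 lower with 2 ng in set A but higher in set B, among them Rplp0 and, named after their values were seen, Rpl8, Rpl14 and Rpl18. Over the 81 genes the log2 fold changes of the sets had a Pearson correlation of 0.96 and a Spearman correlation of 0.943, as a description across genes, which are not independent and share their mice. The medians were -0.18 in set A and -0.051 in set B.

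**Figure D4:**
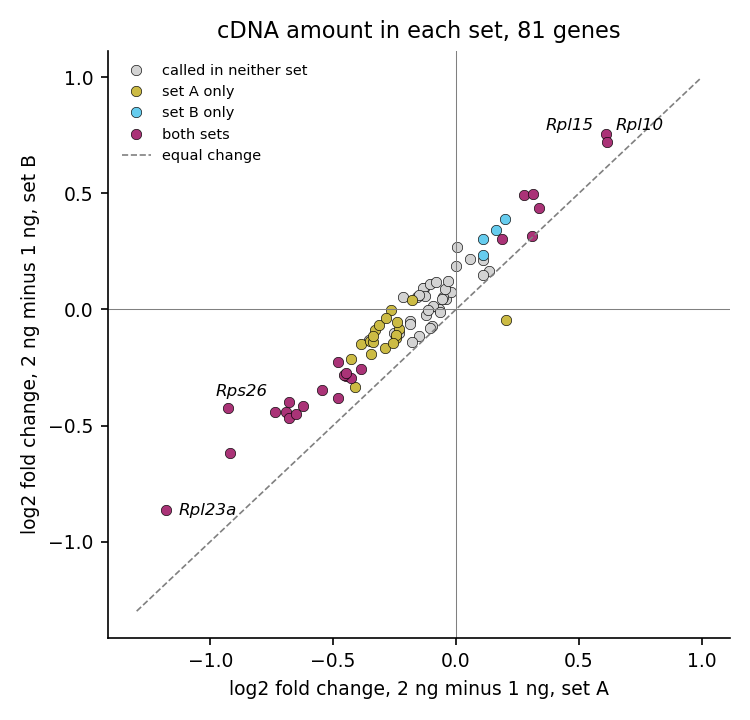
Log2 fold change between 2 ng and 1 ng of the 81 genes in set A (horizontal) against set B (vertical), coloured by the sets in which the gene was called, with a dashed line of equal change. The points follow a line above that of equal change, from Rpl23a at -1.18 and -0.87 to Rpl10 at 0.61 and 0.75.

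The members were also grouped by annotated mRNA length. Of the 24 members of up to 600 nt, 14 fell and 0 rose, with a median of -0.24, while of the 33 of more than 600 and up to 1000 nt 10 fell and 7 rose (median -0.083), and of the 23 above 1000 nt 4 fell and 3 rose (median -0.043). Among all protein-coding genes of up to 600 nt, the members included, 44 of 165 fell and 18 rose, with a median of -0.13. Of those above 600 and up to 1000 nt 65 of 636 fell and 57 rose. Above 1000 nt 772 of 12193 fell and 670 rose. Spearman's rho between log2 fold change and mRNA length was 0.373 over 80 members and -0.0811 over 12994 protein-coding genes, given as descriptions since genes of 1 set of libraries are not replicates. Longer members moved in both directions: Rpl31, with 1049 nt, fell by 0.57, and Rpl15, with 883 nt, rose by 0.66. Members with near-identical copies fell in 19 of 51 cases and those without in 9 of 29, where 6.76% of all genes fell. With copies 8 rose and without copies 2, where 5.57% of all genes rose. The medians were -0.142 with copies and -0.061 without, and whether the groups differ was not tested. Copies were searched for the members only.

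**Figure D5:**
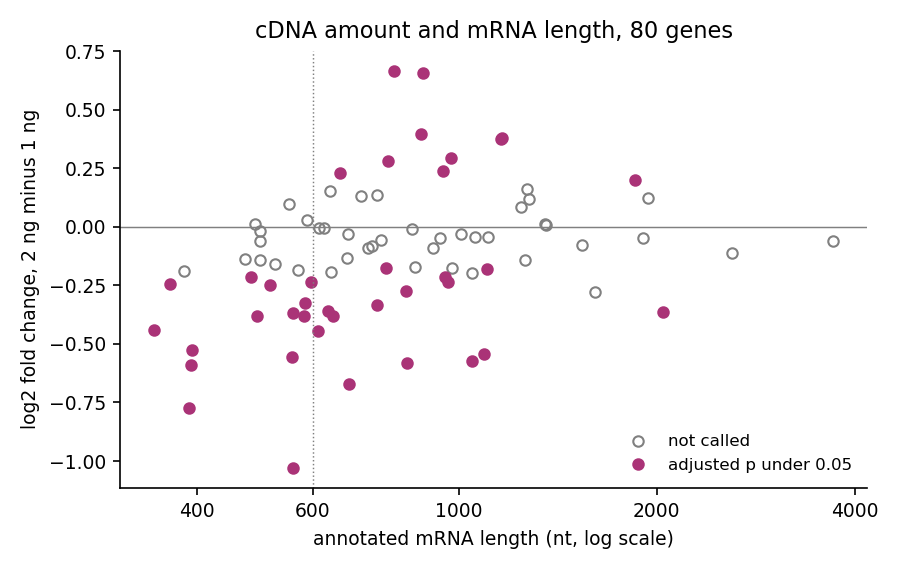
Log2 fold change between 2 ng and 1 ng against annotated mRNA length in nt (log axis) for 80 ribosomal protein genes, with called genes filled and a dotted line at 600 nt. To the left of the line 14 genes were called lower and 0 higher, where 44 and 18 of 165 protein-coding genes of up to 600 nt were.

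The other gene groups moved in both directions. Among 77 mitochondrial ribosomal proteins 7 rose and 4 fell with 2 ng (median -0.018), and among the 17 TOP genes 4 rose and 1 fell (median 0.019), with Eef1a1, the main elongation factor, at 0.88 and Hnrnpa1 at 0.75 among those that rose. Of the 5 ribosomal proteins outside the symbol rule 2 rose and 1 fell, with Rpl36al at 0.22 and Rps27rt at -0.80 among them. In the ribosome biogenesis list 1 rose and 3 fell of 23, and in the mTORC1 list 1 rose and 1 fell of 13. The blood markers fell in 4 of 5 cases, all 4 of them globin genes, with a median of -1.31 over the 5. Whether the lists differ from the members was not tested.

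Set B differed from set A in few members unless the mouse was in the model. The mice of a set can share its reactions, so the set cannot be told apart from these reactions. Of 81 genes 3 were called, against 6.98% of all 13934 genes (1.96% higher and 5.02% lower), 2 of them higher and 1 lower in set B. Rpl22l1 was lower in set B (238 CPM ± 20.7 against 296 CPM ± 32.4, SD, n = 6 mice; log2 fold change -0.31, SE 0.0657, edgeR adjusted p = 0.0035). Rps4l was higher (34.8 CPM ± 6.00 against 26.6 CPM ± 4.68; 0.37, edgeR adjusted p = 0.0498). Rpl17 was not called, at 0.17 (edgeR adjusted p = 0.0607), and was called with the mouse as a block. With the mouse as a block 50 were called, 49 higher and 1 lower, where 21.7% of all genes were called, 10.3% higher and 11.4% lower. The sets did not overlap for 2 members, an arrangement seen in 4.2% of all genes. In all 6 mice 47 members were higher in set B, a count given without its share over all genes. The log2 fold change was above 0 for 70 of the 81 genes (86.4%) and for 54.4% of all genes, with medians of 0.086 and 0.021.

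The sets were also compared within each amount. Within 2 ng 22 genes were called, 21 higher in set B, where 20.4% of all genes were called and 7.48% higher, and with the block 60 (31.6%). Within 1 ng 0 were called by edgeR (0.718% of all genes), and 2 had an unadjusted p under 0.05 (8.47% of all genes). With the block 10 were called within 1 ng (5.15%). The medians were 0.16 within 2 ng and -0.0012 within 1 ng. The interaction of amount and set, which tests whether these differ, called 2 members, both positive, against 2.66% of all 12871 genes (0.59% positive). It called 50 with the mouse as a block, 49 of them positive, where 11.1% of 13249 genes were called and 4.98% positive. As each combination of amount and set can be 1 tagmentation reaction, the comparisons within a set or an amount and this interaction cannot be told apart from differences between single reactions. The estimate was positive for 80 of 81 genes, with a median of 0.17, against a median of 0.021 for all genes. The share of positive estimates over all genes is not given, so the count of 80 is not read as particular to the members.

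Rps26 had the smallest p of the interaction among the members. It stood at 216 to 293 CPM (median 250.4) with 2 ng in set A and at 281 to 353 CPM (median 322) with 2 ng in set B, while the 1 ng libraries stood at 409 to 520.5 CPM (median 472) and 376 to 479 CPM (median 417). The 2 ng libraries were below the 1 ng libraries in both sets, by less in set B, and the interaction was 0.51 on the log2 scale (SE 0.102, edgeR adjusted p = 0.00231). In shares of counted reads on the 84 genes, the 2 ng libraries of set A were lowest, 3.24% ± 0.286 against 3.68% ± 0.296, 3.589% ± 0.288 and 3.708% ± 0.292 (SD, n = 6 mice) for 1 ng in set A, 2 ng in set B and 1 ng in set B.

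Whether the genotype difference depended on the cDNA amount was tested as well. The interaction of genotype and cDNA amount called 0 of 81 genes and 0 of all 13961 genes by edgeR, and 0 members and 0 genes by DESeq2. At an unadjusted p under 0.05, there were 0 members and 0.666% of all genes without the block, and with it 5 of 81 members (6.17%) and 3.86% of all genes, with 0 genes called. Within each of the 4 combinations of amount and set edgeR's genotype test called 0 members, where 1.03% and 1.08% of all genes were called with 2 ng in sets A and B and 1.1% and 1.08% with 1 ng. At an unadjusted p under 0.05 there were 2 members in each set with 2 ng and 1 in each set with 1 ng, where the shares of all genes lay between 6.77% and 7.59%, and the medians lay between 0.0071 and 0.029.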

How the data were processed

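Frontal cortex RNA of 3 WT and 3 GFAP-IL6 mice was profiled in 24 3'Pool-seq libraries. The authors trimmed polyA stretches, aligned the reads to mm10 with STAR 2.4, counted uniquely aligned reads on GENCODE vM6 genes with featureCounts, and deposited raw counts per gene and library without normalization. The submitters' processing notes name hg19 as the build, but the gene identifiers are those of mouse. Gene features came from GENCODE vM21, with blastn 2.17.0 for near-identical copies and RefSeq promoters.

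Groups came from the labels. Counts were summed per mouse for the genotype, per mouse and cDNA amount, and per mouse and set, with genotype in the model of the last 2 comparisons, and single libraries were used for the interaction of amount and set. All genes that passed filterByExpr were fitted with edgeR 4.0.16 in R 4.3.3, by TMM and the quasi-likelihood test, and called at a Benjamini-Hochberg adjusted p under 0.05 with no threshold on the fold change. The study's methods name DESeq2, used here as DESeq2 1.42.0 as an alternative. SE is the absolute log2 fold change over the root of the F statistic. CPM are scaled by TMM, except list sums and shares, which use the total.

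The members and all gene lists were chosen with earlier results of these data known. Named genes were set by a rule: members with a role or a paralogue pair, the 3 highest and 3 lowest in CPM, the 6 with the smallest p between genotypes, the 4 with the smallest p for the amount and for the set among those with the same sign in both sets or both amounts, and members called in an interaction. Rps2, Il6, Gfap and the single genes of other lists lie outside it, and were named after their values were seen. Some genes that the rule names are not reported here. Libraries of the same mouse are paired: their deviations from group means correlated at 0.318 to 0.469 for the amount and 0.146 to 0.333 for the set, so fits with the mouse as a block are given beside the results. Further alternatives were other scalings, other filters, equal totals, other thresholds, single sets or amounts and leaving out each mouse. The tests were checked on simulated counts, drawn independently for each gene and sample without an effect of the mouse. That check does not cover paired libraries or members that move together. Counted reads per library ranged from 1524165 to 12256374. The unit of replication was the mouse for the genotype. For the cDNA amount and the set the mice can share reactions, so those p-values do not measure the spread between reactions. Since no molecular identifiers were counted, PCR duplicates can be among the reads.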

Additional observations from a re-analysis of the deposited data

Results flagged for a closer look

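In 126 groups of 4 or 6 samples, the shares of reads on ribosomal protein genes and the levels of the named members were searched for 1 sample far from the others by Dixon's criterion, the gap to the nearest sample divided by the range. It was met in 8 groups, and chance alone gives about 1 in 20. Sums by amount and by set share libraries, so the groups are not independent. Repeated flags of a gene in the same mouse are therefore not separate findings. GFAP-IL6 mouse 1 was high in Rpl35, at 459.8 CPM with 2 ng against 358.5 to 387 CPM in the other mice (ratio 0.715) and at 448.5 CPM in set B against 338 to 373 CPM (ratio 0.686), while it was low in Rps27l in set A, at 74.0 CPM against 87.6 to 95.4 CPM (ratio 0.636). WT mouse 3 was high in Rps14, at 1511 CPM with 2 ng against 1266 to 1351 CPM (ratio 0.655) and at 1552 CPM in set A against 1294 to 1378 CPM (ratio 0.674). These 2 mice also had the highest summed choroid plexus markers, 743.5 and 3939 CPM, whose part was not tested. WT mouse 2 was low in Rpl7l1 in set A, at 47.3 CPM against 54.7 to 57.5 CPM (ratio 0.723), and GFAP-IL6 mouse 3 was high in Rps4l in set A, at 35.5 CPM against 22.7 to 26.8 CPM (ratio 0.679). In WT mouse 3 the 2 ng library of set A had a share of reads of 3.449% against 3.746% to 3.793% in its other 3 libraries (ratio 0.863). In each of the 6 mice this library had the lowest share of the 4, and of these groups that of WT mouse 3 met the criterion.

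The difference between cDNA amounts was itself different between the sets for Rps26, by 0.51 on the log2 scale, in the test of the interaction. With 1 tagmentation reaction possible for each amount and set, this cannot be told apart from a difference between reactions.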

How the results depend on the processing

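Between genotypes 0 members were called under each of 14 other settings and on leaving out each mouse, and the same held for the 8 other settings of the genotype by amount interaction. Same-numbered mice as a replicate block were 1 of the 14, though the labels do not say that the numbers pair WT with GFAP-IL6 mice. The deviations of same-numbered mice correlated at -0.0489 to -0.0322, while the members' median deviation was -0.138 in WT mouse 1 and -0.209 in GFAP-IL6 mouse 1. That block called 0 members (83 tested) and 220 genes in place of 263. The median genotype difference lay between -0.050 and 0.087 on leaving out 1 mouse. For the cDNA amount, the 38 calls became 66 with the mouse as a replicate block, 71 and 58 with that block within sets A and B, the last 2 chosen after seeing the data, 1 with an absolute log2 fold change above 1, and 26 to 39 on leaving out 1 mouse. The median of -0.13 became -0.087 by library totals without TMM, -0.18 within set A (-0.18 with the block), -0.051 within set B (-0.045 with the block), and -0.14 to -0.12 on leaving out 1 mouse. Between sets, the 3 calls became 6 with DESeq2 and at an adjusted p under 0.1, 1 by library totals, 50 with the replicate block, 22 within 2 ng (60 with the block), 0 within 1 ng (10 with the block), 0 with an absolute log2 fold change above 1, and 1 to 3 on leaving out 1 mouse. The median of 0.086 became 0.16 within 2 ng (0.16 with the block), -0.0012 within 1 ng (0.0033 with the block), and 0.079 to 0.094 on leaving out 1 mouse. For amount by set, the 2 calls became 4 with DESeq2, 1 by library totals, with no filter and at equal totals, 50 with the replicate block, and 1 to 3 on leaving out 1 mouse. Without WT mouse 1, WT mouse 2 or GFAP-IL6 mouse 2 a single call was left for the set and for amount by set, and without GFAP-IL6 mouse 3 for amount by set. The block removes the spread between mice and tests more genes than the fit without it; otherwise the cause was not tested. Of the single named genes, 1039 values under alternatives kept their side of the threshold, 980 of them with the same sign and 59, not called in either fit, with another sign, while 38 became called, 30 lost the call, and 1 changed sign with a call: Rplp0 for the amount, 0.0089 and not called, was called at -0.077 with the replicate block within set A (edgeR adjusted p = 0.0136). Each amount can rest on 2 reactions, 3 mice per genotype limit the genotype test, and unique alignment limits levels of members with copies.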
